A study of Rattus norvegicus with 48 samples.

Results

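Gene expression in cerebral endothelial cells (CECs) was compared between rats fasted for 2 days (F2 rats) and rats fasted for 1 day (F1 rats), to ask how CECs differ after a second day without food. The comparison was defined by the fast that the labels give and not by any measured value, and it takes 6 of the 12 samples of the series, 3 F1 and 3 F2 samples, or 24 of the 48 count files. All animals were male Wistar-Han rats with free access to water, and food was withdrawn for 1 or 2 days. No genetic change was made, and before the brain was taken all rats were anesthetized with diazepam and ketamine and perfused with heparin. Per the study's methods, cortices of 4 rats went into each isolation, and the samples of a group came from 3 independent experiments. CECs were obtained by magnetic sorting, in which CD11b-positive microglia were removed and CD31-positive cells retained. The letters i, j and k name the samples of a group. Samples of rats that ate freely (AL, ad libitum) or went 3 days without food (F3) share the model and are described only where they are named.

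Brain endothelial cells form the blood-brain barrier, in which tight junctions close the paracellular route, so that nutrients cross mainly on carriers of the SLC families and many drugs are returned to the blood by ABC efflux pumps. During a fast the liver turns fatty acids into ketone bodies, which the brain burns in place of part of its glucose and which cross the barrier on monocarboxylate carriers. Fatty acids released from adipose tissue also act on endothelial cells as fuel and as ligands of nuclear receptors.

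Summed over technical replicates, 23237702 to 23808952 reads were assigned to genes in F1 samples and 23537074 to 24277115 in F2 samples. Of 32624 listed features, the 13050 with a read in every sample of the series were tested, and 2043 of these could be paired with a gene symbol, nearly all of which begin with A, B or the first letters of C or belong to transporters. Technical replicates of a sample differed about as much as counting noise gives (chi-square over its degrees of freedom 1.00 to 1.02). One technical replicate of F1 sample k, d, carries a label of 2 days of fasting beside a title that names F1, and it was kept with F1 rats, where the same ratio was 1.00 against technical replicates a to c of that sample and 10.8 against the summed F2 samples. F2 sample j stood apart from the rest. By this ratio, pairs of F1 samples differed with 9.75 to 16.5 and F2 samples i and k with 11.5, whereas F2 sample j differed from i with 48.8 and from k with 51.5. Among 9438 genes with a mean of at least 100 normalized counts, 145 were more than 2-fold lower in F2 sample j than in the mean of the other two F2 samples and 8 were more than 2-fold higher, against 6 to 14 lower and 2 to 16 higher in each of the other 5 samples. Cbl, for example, had 888 and 778 normalized counts in F2 samples i and k but 265 in j, and Birc6 had 4409 and 4396 but 1497. Neither gene was called between F2 and F1 rats, and the values without F2 sample j are therefore given beside the results.

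Between F2 and F1 rats, 186 of the 13050 genes differed at an adjusted p-value of at most 0.05 (quasi-likelihood test of edgeR, Benjamini-Hochberg adjustment), which is 1.43% of those tested. Of these, 57 were higher in F2 rats (0.437%) and 129 were lower (0.989%). The differences were small. The Log2 fold change (LFC, F2 minus F1) had a median of 0.53 among the higher and of -0.57 among the lower genes, 3 of the higher genes reached an LFC of 1 and 13 of the lower genes reached -1. Over all genes tested the median size of the LFC was 0.15, with a median SE of 0.13, and the 95% interval lay within 0.5 on either side of 0 for 55.3% of genes and within 1 for 80.1%. The smallest adjusted p-value was 0.00742, and before adjustment 2252 genes lay under 0.05. In 2844 genes, 21.8% of those tested, the 3 F2 samples did not overlap with the 3 F1 samples, and all 186 called genes were among them.

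**Figure D1:**
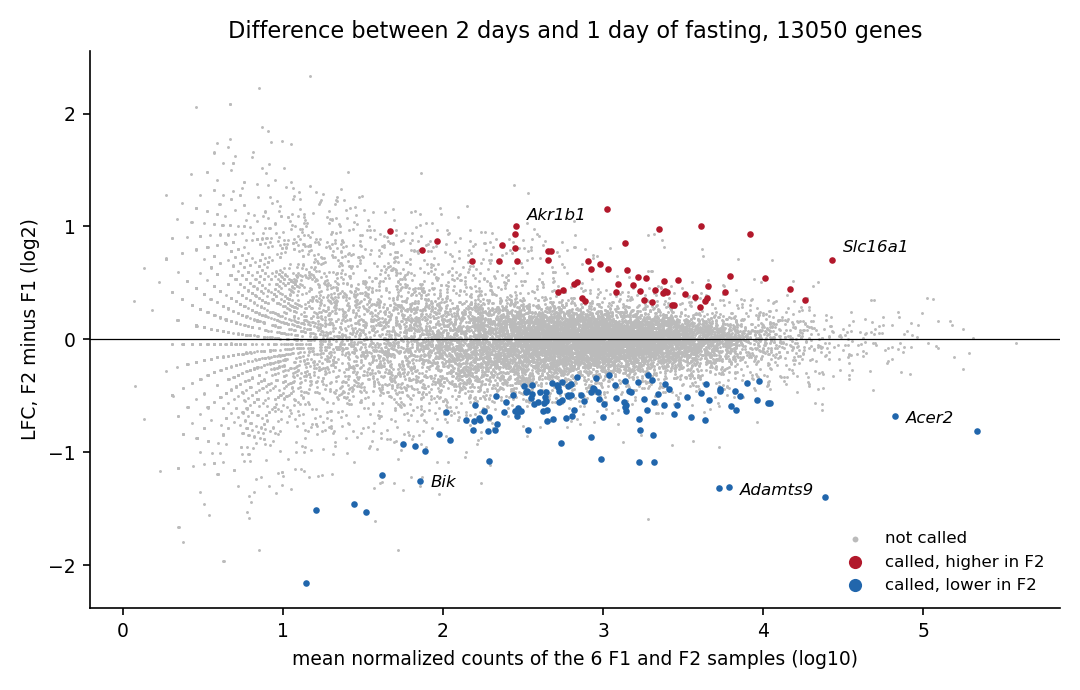
Each point is 1 of the 13050 genes, with the mean level of the 6 samples on the x axis (log10 of normalized counts) and the LFC, F2 minus F1, on the y axis. The 57 genes called higher (red) and the 129 called lower (blue) lie at most levels of expression, and most of them have an LFC between -1 and 1.

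The number of calls depended on single samples. Without F1 sample j no gene was called by edgeR (1516 genes had an unadjusted p-value under 0.05), without F1 sample i 4 were, without F1 sample k 65, without F2 sample k 48, without F2 sample i 139 and without F2 sample j 118, of which 77 were among the 186. Leaving out a sample of the other groups, which contribute to the estimated spread, gave 34 calls without F3 sample k and 93 to 194 without each of the others. With only the 6 F1 and F2 samples in the model, 56 genes were called, 29 higher and 27 lower. In each of these fits all 186 genes kept the sign of their LFC. None of the 186 overlapped between the groups, so leaving out a sample could hardly turn a sign. The kept signs are therefore no separate evidence. DESeq2 called 616 genes, among them all 186.

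Of the 186 called genes, 33 carry a symbol, 10 higher and 23 lower, and 3 of the symbols are names of clones. These 33 are 1.62% of the 2043 tested features with a symbol, against 1.43% called of all 13050. The text names the 24 called genes with the largest differences whose mean reached 100 normalized counts, and Bik as a called member of a gene list. All 25 were called by DESeq2 as well. They kept their direction in each alternative fit, but none of the 25 overlapped between the groups, which largely fixes the direction beforehand. None of the 25 was called without F1 sample i or without F1 sample j, 12 were called without F2 sample j, 3 without F2 sample k, 8 without F1 sample k, 13 without F2 sample i and 6 with only the 6 samples in the model.

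**Figure D2:**
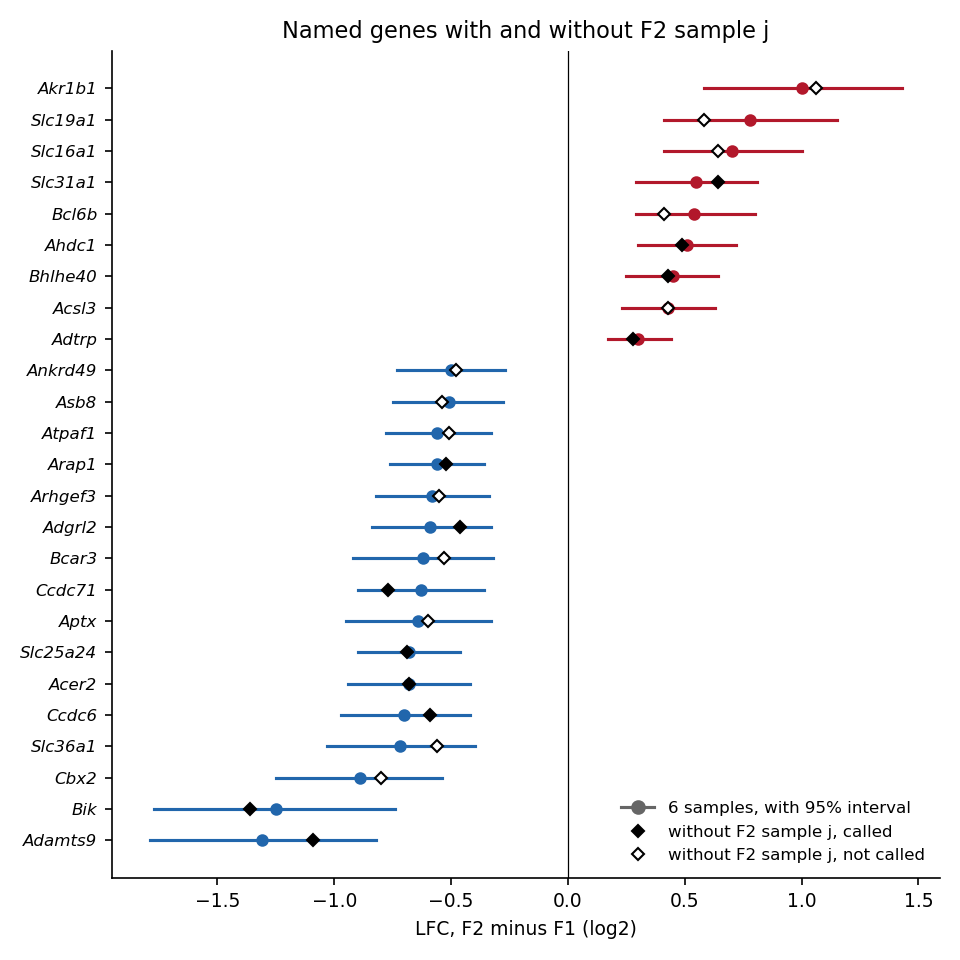
LFC, F2 minus F1, of the 25 called genes named in the text (circles) with their 95% intervals (lines), and the LFC without F2 sample j (diamonds, filled where the gene was still called). Without F2 sample j, 12 of the 25 were still called. The direction was the same in each, which the lack of overlap between the groups largely fixes beforehand.

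Carriers of energy substrates were led by Slc16a1, which encodes MCT1, the proton-coupled carrier of lactate, pyruvate and ketone bodies. It had 19507, 17968 and 24227 normalized counts in F1 samples i, j and k and 31256, 36341 and 32858 in F2 samples. The lowest F2 sample lay above the highest F1 sample, F1 sample k. The LFC was 0.70 ± 0.14 (SE), or 1.63-fold (adjusted p = 0.03). Without F2 sample j the LFC was 0.64 and the adjusted p-value 0.0693. The means of the other groups were lower than the F2 mean of 33485 normalized counts, with 13975 in AL rats and 24157 in F3 rats. Of the 13 tested genes in a list for the use of monocarboxylates, glucose and ketones, Slc16a1 was the 1 that was called. Their median LFC was 0.05, against -0.002 over all genes tested. Slc16a4, a relative of Slc16a1, had an LFC of 0.31 ± 0.09 (adjusted p = 0.114), and Aacs, which activates acetoacetate for lipid synthesis, had -0.35 ± 0.11 (adjusted p = 0.128). Slc2a1, the glucose carrier GLUT1, had 373387, 392818 and 383328 normalized counts in F1 samples and 389016, 382257 and 355198 in F2 samples. These values overlap, and the LFC of -0.03 has a 95% interval from -0.22 to 0.16.

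Other carriers differed in both directions. In the list of 49 SLC carriers that the study chose because they differed from AL rats in these same samples, 3 were higher in F2 than in F1 rats and 2 were lower by edgeR (10.2%, against 1.43% of all genes), and 6 were higher and 5 lower by DESeq2. In this list 26 (53.1%) did not overlap between the groups, against 21.8% of all genes. As the list was chosen on these samples, its share is not independent evidence, and its median LFC was -0.03. Slc19a1, the reduced folate carrier, had 335, 314 and 354 normalized counts in F1 samples and 500, 727 and 501 in F2 samples. F2 sample j was the highest, and the groups did not overlap. The LFC was 0.78 ± 0.17 (adjusted p = 0.0445), and without F2 sample j it was 0.58 (adjusted p = 0.0803). Slc31a1, which takes up copper, had 1312, 1342 and 1386 normalized counts in F1 samples and 1859, 1722 and 2332 in F2 samples. All F2 samples lay above all F1 samples, with an LFC of 0.55 ± 0.12 (adjusted p = 0.0466), and of 0.64 (adjusted p = 0.0429) without F2 sample j.

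Both lower carriers serve organelles. Slc36a1, a proton-coupled amino acid carrier of lysosomes and the cell surface, had 205, 193 and 236 normalized counts in F1 samples and 143, 99.1 and 144 in F2 samples. The groups did not overlap and F2 sample j was the lowest. The LFC was -0.72 ± 0.15 (adjusted p = 0.0331), and without F2 sample j it was -0.56 (adjusted p = 0.0506). Slc25a24, a calcium-dependent ATP-magnesium and phosphate carrier of mitochondria, had 784, 898 and 688 normalized counts in F1 samples and 474, 499 and 504 in F2 samples, again without overlap. Its LFC of -0.68 ± 0.10 had an adjusted p-value of 0.0118, and without F2 sample j it was -0.69 (adjusted p = 0.0204). Slc40a1, the iron exporter ferroportin, and Slc35e4 were just outside the threshold, with LFCs of 0.38 and -0.41 (adjusted p = 0.051 for both).

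Acsl3 and Acer2 were the named enzymes of lipid metabolism that differed. Acsl3, an acyl-CoA synthetase that acts at the endoplasmic reticulum and lipid droplets, had 1367, 1444 and 1565 normalized counts in F1 samples and 1879, 1971 and 2040 in F2 samples. The groups did not overlap, and the LFC was 0.43 ± 0.09 (adjusted p = 0.0411; 0.43 and 0.0532 without F2 sample j). Acer2, a Golgi ceramidase that releases sphingosine, was the most abundant of the named called genes, with 85775, 88095 and 74108 normalized counts in F1 samples and 53135, 51066 and 50400 in F2 samples. The F2 samples lay close together and below each F1 sample. The LFC was -0.68 ± 0.12, or 1.60-fold lower (adjusted p = 0.0292), and it was -0.68 without F2 sample j (adjusted p = 0.0417).

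Among 29 tested genes of fatty acid oxidation and PPAR targets, Acsl3 was the 1 called by edgeR, while DESeq2 called 2 higher and 1 lower. Of the 29, 18 had an LFC above 0 and 11 below, and the median was 0.04. Acsl1, another acyl-CoA synthetase, had an LFC of 0.33 ± 0.08 (adjusted p = 0.0583), and the mitochondrial and peroxisomal thioesterases Acot2 and Acot3 had LFCs of 0.37 and -0.46 (adjusted p = 0.116 for both). Reads that matched more than once were removed before counting, so that values of such close paralogs are uncertain. Angptl4, a secreted inhibitor of lipoprotein lipase and a PPAR target, had 14419, 16578 and 14328 normalized counts in F1 samples and 11885, 12243 and 11789 in F2 samples. The F2 samples lay below the F1 samples, but the LFC of -0.34 ± 0.10 was not called by edgeR (adjusted p = 0.105), whereas DESeq2 gave an adjusted p-value of 0.0357. Of 10 tested genes of fatty acid and glycerolipid synthesis, with a median LFC of -0.09, edgeR called 0 and DESeq2 1. At an unadjusted edgeR p-value under 0.05 there were 2, against 2252 of all 13050 genes. Uncalled members of lists are named here after their values were seen.

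Among regulators of transcription, Bhlhe40, a repressor in the circadian clock that also responds to hypoxia, had 13148, 11733 and 12574 normalized counts in F1 samples and 16776, 17390 and 16857 in F2 samples. The F2 samples were close to each other and above every F1 sample. The LFC was 0.45 ± 0.09 (adjusted p = 0.0311), and without F2 sample j it was 0.43 (adjusted p = 0.0431). Of 19 genes in the clock list, only 2 could be paired with a symbol and tested, and the others were not examined. The second was Arntl, an activator that pairs with CLOCK. It had 2036, 1838 and 2063 normalized counts in F1 samples and 2572, 2233 and 2176 in F2 samples. These did not overlap, and Arntl was not called (LFC 0.23 ± 0.09, adjusted p = 0.182). Per the study's methods, rats of all groups that fasted were killed at the same hour of the morning.

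Bcl6b, a zinc finger repressor related to BCL6, had 8513, 7831 and 8836 normalized counts in F1 samples and 10877, 14416 and 11433 in F2 samples. The groups did not overlap, with an LFC of 0.54 ± 0.12 (adjusted p = 0.042; 0.41 and 0.0666 without F2 sample j). Ahdc1, an AT-hook DNA-binding protein, was tight in both groups, with 562, 578 and 571 normalized counts in F1 samples and 820, 835 and 781 in F2 samples. Its LFC was 0.51 ± 0.10 (adjusted p = 0.0298), and 0.49 (adjusted p = 0.0429) without F2 sample j. Cbx2, a Polycomb subunit that binds methylated histone, had 160, 124 and 149 normalized counts in F1 samples and 80.2, 67.4 and 85.2 in F2 samples. It was lower in F2 rats without overlap, with an LFC of -0.89 ± 0.16 (adjusted p = 0.0292; -0.80 and 0.0506 without F2 sample j).

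Promoters of the named called genes are shown for 3 members that hold an E-box, the palindrome CACGTG at which BHLHE40, clock activators and other basic helix-loop-helix proteins can bind, since Bhlhe40 itself was among the higher genes. RefSeq promoters of the rat assembly GRCr8, 250 bases before to 50 after the start of the gene, matched 21 of the 25 genes. CACGTG was present in 2 of 7 promoters of higher genes (Slc16a1 and Bhlhe40) and in 4 of 14 of lower genes (Slc36a1, Ccdc6, Bcar3 and Arap1), against 6.42% of all 33469 promoters in the table. It thus occurred among genes of both directions. The GC box GGGCGG was present in 6 of 7 promoters of higher genes and 8 of 14 of lower genes, against 33.1% of all. The forkhead motif TGTTTAC was found in none of the 21 promoters (3.78% of all) and the cAMP response element TGACGTCA in that of Ankrd49 (1.83% of all). The promoters of the table were not restricted to expressed genes or matched for GC content, so an excess of any motif was not tested. Both strands were searched, and a match or its absence describes these letters only. The sequences lie at chr2:194812410-194812709 (Slc16a1), chr4:143174200-143174499 (Bhlhe40) and chr10:39824785-39825084 (Slc36a1) of GRCr8, each on the plus strand, and are written 5′ to 3′ with CACGTG in capitals.
Slc16a1: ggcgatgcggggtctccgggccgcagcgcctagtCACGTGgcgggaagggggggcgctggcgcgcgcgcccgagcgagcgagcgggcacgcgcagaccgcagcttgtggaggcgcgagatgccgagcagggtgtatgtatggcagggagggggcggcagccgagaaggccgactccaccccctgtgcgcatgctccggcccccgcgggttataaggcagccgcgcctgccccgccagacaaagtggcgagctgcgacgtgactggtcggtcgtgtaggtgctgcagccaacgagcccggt
Bhlhe40: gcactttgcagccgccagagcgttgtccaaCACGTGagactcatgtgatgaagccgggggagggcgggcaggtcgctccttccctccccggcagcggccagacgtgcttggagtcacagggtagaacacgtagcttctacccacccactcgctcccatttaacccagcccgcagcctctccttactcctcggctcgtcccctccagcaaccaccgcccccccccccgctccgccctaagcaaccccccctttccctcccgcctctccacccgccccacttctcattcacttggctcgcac
Slc36a1: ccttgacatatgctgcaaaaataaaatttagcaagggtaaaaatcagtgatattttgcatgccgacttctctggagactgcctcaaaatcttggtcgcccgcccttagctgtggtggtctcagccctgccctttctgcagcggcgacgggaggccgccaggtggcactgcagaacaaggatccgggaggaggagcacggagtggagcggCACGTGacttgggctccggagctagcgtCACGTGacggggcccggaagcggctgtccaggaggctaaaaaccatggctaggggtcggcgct

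Among genes of the matrix, adhesion and cytoskeleton, the largest named difference was that of Adamts9, a secreted metalloprotease that cleaves versican and aggrecan. It had 8482, 9141 and 8726 normalized counts in F1 samples and 3748, 2376 and 4518 in F2 samples. Every F2 sample was far below every F1 sample, and F2 sample j was the lowest. The LFC was -1.31 ± 0.22, or 2.48-fold lower (adjusted p = 0.0292), and without F2 sample j it was -1.09 (adjusted p = 0.043). In the list of metalloproteases and matrix, 22 genes were tested and Adamts9 was the 1 called, and the median LFC was 0.02. Adamts4, a protease with related substrates, had an LFC of 0.66 ± 0.29 (adjusted p = 0.259).

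Arhgef3, an exchange factor that activates small GTPases of the cytoskeleton, had 3117, 3533 and 3788 normalized counts in F1 samples and 2548, 2223 and 2192 in F2 samples. The groups did not overlap, and the LFC was -0.58 ± 0.11 (adjusted p = 0.0298; -0.55 and 0.0639 without F2 sample j). Arap1, a GTPase-activating protein of membrane traffic and actin, had 1755, 1517 and 1555 normalized counts in F1 samples and 1162, 1036 and 1083 in F2 samples. It was likewise lower in F2 rats, with an LFC of -0.56 ± 0.09 (adjusted p = 0.0195), and -0.52 (adjusted p = 0.0324) without F2 sample j. Of 38 tested features in the list of actin and small GTPase regulators, in which Abl1 stands for 2 identifiers, Arhgef3 was the 1 called, and 14 (36.8%) did not overlap between the groups, against 21.8% of all genes, 9 higher and 5 lower, with a median LFC of 0.04.

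Bcar3, an adaptor in SRC and integrin signalling, had 8202, 9110 and 7163 normalized counts in F1 samples and 6180, 4582 and 5155 in F2 samples. Adgrl2, the adhesion receptor latrophilin 2, had 7598, 7960 and 7243 in F1 samples and 5288, 4109 and 5795 in F2 samples. Both were lower without overlap, with LFCs of -0.62 ± 0.14 (adjusted p = 0.0476) and -0.59 ± 0.12 (adjusted p = 0.0311). Without F2 sample j the adjusted p-values were 0.113 and 0.0417. Adtrp, which regulates tissue factor pathway inhibitor in endothelial cells, had 2407, 2311 and 2542 normalized counts in F1 samples and 2981, 3080 and 2889 in F2 samples. It had the smallest LFC of the named called genes, 0.30 ± 0.06, and no overlap (adjusted p = 0.037; 0.28 and 0.0431 without F2 sample j).

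**Figure D3:**
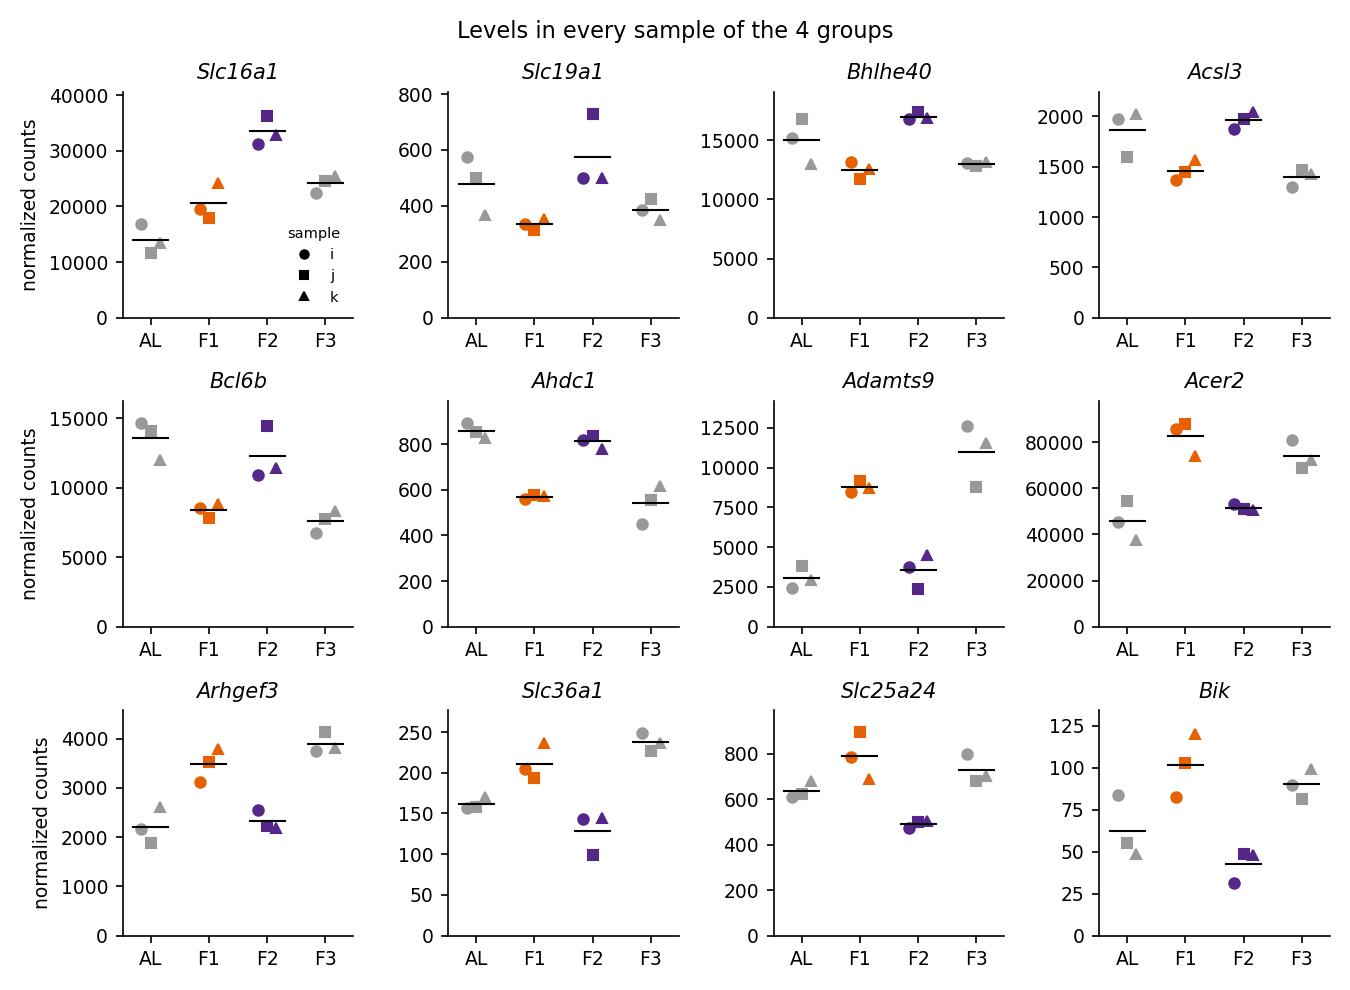
Normalized counts (y axis, from 0) of 12 called genes in each sample i (circles), j (squares) and k (triangles) of AL, F1, F2 and F3 rats, with group means as lines. The F1 samples (orange) and F2 samples (purple) do not overlap in any of the 12 genes, and Slc16a1 is highest in F2 rats, with a mean of 33485 normalized counts.

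Of the 24 tested genes of apoptosis, 1 was called by edgeR (4.17%, against 1.43% of all genes), while DESeq2 called 1 higher and 4 lower. Bik, a BH3-only protein that promotes cell death, had 82.3, 103 and 120 normalized counts in F1 samples and 31.1, 48.5 and 48.1 in F2 samples. The F2 samples lay below the F1 samples, with an LFC of -1.25 ± 0.24, or 2.38-fold lower (adjusted p = 0.0298), and of -1.36 (adjusted p = 0.0392) without F2 sample j. The median LFC of the list rounded to 0.00, with 11 genes above 0 (up to 0.42) and 13 below. At an unadjusted edgeR p-value under 0.05, 4 were higher and 4 lower, against 975 and 1277 of all 13050 genes. Among the lower ones, Casp2, Bmf and Bok, which also take part in cell death, had LFCs of -0.41, -0.68 and -0.36 (adjusted p = 0.0607, 0.0882 and 0.0887).

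Akr1b1, the aldose reductase that turns glucose into sorbitol, had 180, 224 and 167 normalized counts in F1 samples and 281, 350 and 514 in F2 samples. This was the largest rise among the named genes, 2.00-fold with an LFC of 1.00 ± 0.20 and no overlap, although the F2 samples spread widely (adjusted p = 0.0303; 1.06 and 0.0506 without F2 sample j). Aptx, a DNA strand-break repair protein, had 122, 141 and 122 normalized counts in F1 samples and 77.2, 77.3 and 92.2 in F2 samples, and Atpaf1, an assembly factor of mitochondrial ATP synthase, had 510, 463 and 428 and then 320, 299 and 335. Both were lower without overlap, with LFCs of -0.64 ± 0.15 (adjusted p = 0.0476) and -0.56 ± 0.11 (adjusted p = 0.0295). The other named lower genes, Ccdc6, Ccdc71, Asb8 and Ankrd49, had LFCs from -0.70 to -0.50 with adjusted p-values from 0.0292 to 0.0404. Without F2 sample j, Ccdc6 (adjusted p = 0.0447) and Ccdc71 (0.0195) were called, and Aptx (0.0878), Atpaf1 (0.0506), Asb8 (0.0506) and Ankrd49 (0.0636) were not.

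The remaining 153 called features have no symbol here. Of those with at least 100 normalized counts, ENSRNOG00000019120 had 731, 508 and 724 normalized counts in F1 samples and 1417, 1730 and 1221 in F2 samples, the largest rise (LFC 1.15 ± 0.22, adjusted p = 0.0361; 0.102 without F2 sample j). The largest fall was that of ENSRNOG00000007324, with 34143, 39248 and 32429 normalized counts in F1 samples and 18798, 7916 and 13387 in F2 samples. Its LFC was -1.40 ± 0.28 (adjusted p = 0.04; 0.0723 without F2 sample j). Next came ENSRNOG00000004345, with 7348, 8462 and 7013 in F1 samples and 3466, 2234 and 3446 in F2 samples (LFC -1.32 ± 0.17, adjusted p = 0.0118; 0.0181 without F2 sample j). The strand setting of the counting is not given in the sources used here, so reads of overlapping antisense genes may be mixed.

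Further genes that the study names were not called between F2 and F1 rats. Pdk4, Cpt1a and Ppard, which the study also names, could not be paired with an identifier here, and their values were not examined. Among the drug efflux pumps, Abcb1a, which encodes P-glycoprotein and has a close paralog, had an LFC of 0.05 with a 95% interval from -0.14 to 0.24, Abcg2 0.20 (-0.07 to 0.46) and Abcc4 -0.26 (-0.53 to 0.01), and their samples overlapped between the groups. Of 26 ABC transporters tested none was called by edgeR, with a smallest adjusted p-value of 0.0952, and DESeq2 called 1. At an unadjusted edgeR p-value under 0.05, 2 were higher and 1 lower, against 975 and 1277 of all 13050 genes. Slc38a3, the glutamine carrier SNAT3, had 54059, 52335 and 47090 normalized counts in F1 samples and 44598, 41425 and 40765 in F2 samples. These do not overlap, and the LFC was -0.28 ± 0.09 (adjusted p = 0.143). Slc19a3, a thiamine carrier, had 7735, 8214 and 7320 normalized counts in F1 samples and 7127, 3581 and 5679 in F2 samples, of which j was the lowest. The LFC was -0.51 ± 0.21 (adjusted p = 0.243), and -0.28 (adjusted p = 0.417) without F2 sample j. The riboflavin carrier Slc52a2 (LFC 0.05), the glutamate carrier Slc1a1 (-0.51) and the taurine carrier Slc6a6 (-0.09) overlapped between the groups, with adjusted p-values of 0.796, 0.439 and 0.825.

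Most other lists held no called gene among the members that could be tested. None was called by edgeR among 20 of 25 listed genes of autophagy, 21 of 26 of the cell cycle and 29 of 29 of ATP synthase and V-ATPase. The same held for 21 of 40 of angiogenic and barrier signalling, 17 of 30 of inflammation and leukocyte adhesion and 15 of 25 vasoactive peptides and receptors. It also held for 9 of 33 of the amino acid starvation response and 8 of 31 heat shock genes and co-chaperones. The last lists were junctions and caveolae, with 6 of 20 tested, and immediate early genes, with 4 of 21. The other members were not examined, and some may be among the called features without a symbol. Unadjusted p-values under 0.05 were found for 4 of the autophagy genes, 2 of the cell cycle, 0 of ATP synthase and V-ATPase, 6 of angiogenic and barrier signalling, 4 of inflammation, 5 of the vasoactive list and 2 of the starvation response, and for 0 in the last 3 lists. Of all 13050 genes tested, 2252 had such a value. DESeq2 called 2 genes of angiogenic and barrier signalling, 2 of inflammation and 1 of the vasoactive list, and 0 of the other 7 lists, and the median LFC of the 10 lists lay between -0.07 and 0.33. Bdkrb2, the bradykinin B2 receptor of the vasoactive list, had 1175, 1182 and 1190 normalized counts in F1 samples and 1762, 1604 and 1845 in F2 samples, without overlap, and just missed the threshold (LFC 0.56 ± 0.13, adjusted p = 0.0595). Atf4, a regulator of the starvation response, had an LFC of 0.34 ± 0.12 (adjusted p = 0.182). In the list of ATP synthase and V-ATPase subunits, 28 of 29 genes had an LFC above 0, against 49.5% of all genes, with a median of 0.10. The summed level of this list was highest in F2 sample j, and without that sample its median was 0.02. In the list of glycolysis and hypoxia, with 9 genes tested, Bhlhe40 was the 1 called.

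Endothelial markers had similar summed levels in both groups. The summed level of 11 endothelial markers was 998075 to 1029522 normalized counts in F1 samples and 1014916 to 1057831 in F2 samples. Slc2a1, with means of 383178 in F1 and 375491 in F2 samples, and Bsg, with 171042 and 181952, make up much of it. The sum therefore does not measure the share of endothelial cells. The median LFC was 0.07, and edgeR called none and DESeq2 2. At an unadjusted edgeR p-value under 0.05 there were 4, against 2252 of all 13050 genes. Pecam1, which encodes CD31, had 36433, 38791 and 35876 normalized counts in F1 samples and 31872, 32294 and 32172 in F2 samples. It was lower in each F2 sample, with an LFC of -0.21 ± 0.07 (adjusted p = 0.175). In the lists of arterial and venous endothelium, with 3 genes tested each, none was called by edgeR or DESeq2 (0 and 2 genes at an unadjusted p-value under 0.05) and the median LFCs were -0.13 and 0.13.

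Markers of pericytes and smooth muscle had higher values in F2 than in F1 samples, but none was called. All 5 of 15 listed markers that could be tested had an LFC above 0, from 0.50 to 0.98, and their summed level ranged from 3094 to 3468 normalized counts in F1 samples and from 3747 to 6974 in F2 samples, lowest in F2 sample j. Atp13a5, an ion pump that marks brain pericytes, had 954, 894 and 1036 normalized counts in F1 samples and 1913, 1211 and 2127 in F2 samples. Abcc9, a potassium channel subunit of pericytes, had 1603, 1811 and 1816 and then 3408, 1809 and 3980. F2 samples i and k were about as high as each other and j lay near the F1 samples. None of the 5 was called by edgeR or DESeq2 (smallest edgeR adjusted p = 0.178). An unadjusted edgeR p-value under 0.05 was found for 3, against 2252 of all 13050 genes. Atp1b2, a sodium pump subunit from the list of astrocytes, had an LFC of 0.80 (adjusted p = 0.256), whereas Apoe of the same list had 0.05. Bgn of the list of fibroblasts had 0.74 (adjusted p = 0.28). When the log2 of the summed pericyte markers entered the model as a covariate, a choice made after seeing the data, 49 genes were called, 18 higher and 31 lower, 37 of them among the 186, and all 186 kept their sign. Slc16a1 then had an LFC of 0.66 (adjusted p = 0.0891), and Adamts9 one of -1.56 (adjusted p = 0.0439). The part of these cells in the differences was not tested, and fewer cells of a type and less RNA per cell cannot be told apart in bulk samples.

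Among markers of further cell types, fixed as lists, no tested member was called. The 8 tested genes of microglia and macrophages summed to 71.5 to 96.5 normalized counts in F1 samples and 76.2 to 139 in F2 samples, the 2 neuronal genes to 57.8 to 91.4 and 73.2 to 130, and the 3 lymphocyte genes to 62 to 176 and 71.2 to 87.2. The 6 fibroblast genes summed to 1117 to 1210 and 1321 to 1700, the 2 oligodendrocyte genes to 935 to 1050 and 1156 to 1183, the 5 astrocyte genes to 41124 to 53994 and 48521 to 59278, and the 2 red blood cell genes to 879 to 922 and 933 to 1019. None of these genes was called by edgeR or DESeq2. At an unadjusted edgeR p-value under 0.05 there were 3 fibroblast, 1 oligodendrocyte, 2 astrocyte and 1 red blood cell gene, all higher in F2 rats. Of all 13050 genes, 975 were higher at that threshold. The defining neuronal and oligodendrocyte genes were not analysed here, as their symbols could not be paired with identifiers. The other lists were also tested only in part, with 8 of 13 microglia, 5 of 12 astrocyte, 6 of 11 fibroblast, 3 of 8 lymphocyte and 2 of 8 red blood cell genes. The sums therefore do not measure how many cells of a type were present. The paper reported glial, neuronal and mural cell transcripts as very low or not detected.

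**Figure D4:**
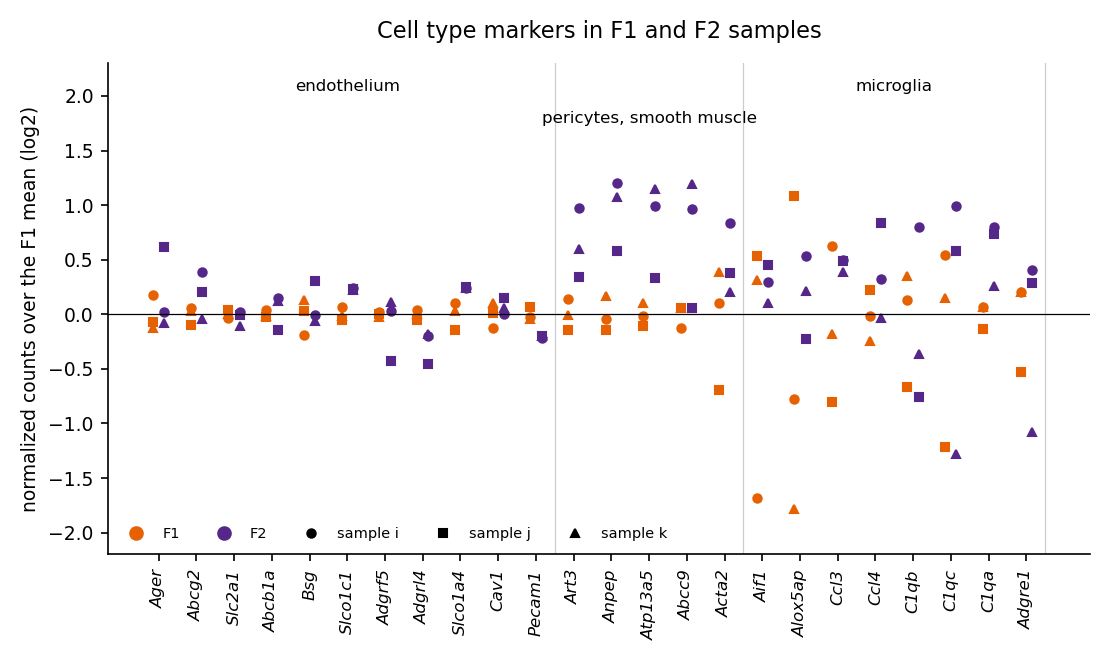
Normalized counts of each F1 (orange) and F2 (purple) sample over the mean of the F1 samples, on a log2 scale (y axis), for markers of endothelium, of pericytes and smooth muscle, and of microglia (x axis). F2 samples i (circles) and k (triangles) lie near 1 for the pericyte markers Anpep, Atp13a5 and Abcc9, a doubling, and F2 sample j (square) lies between them and the F1 samples or among the latter.

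The second day of fasting was then set beside a difference that shares no sample with it, that between F3 and AL rats. Across the 13050 genes the LFC of F2 minus F1 and the LFC of F3 minus AL were inversely related (Pearson's r = -0.287, Spearman's coefficient = -0.377), and among the 9438 genes with at least 100 normalized counts Pearson's r was -0.520. These are descriptions across genes, which are not independent replicates, and the samples compared share the protocol and the normalization. Leaving out each sample in turn gave r from -0.329 to -0.154, the weakest without AL sample i, and without F2 sample j r was -0.220. With no filter on low counts r was -0.058.

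Of the 57 genes higher in F2 than in F1 rats, 42 (73.7%) were called lower and 1 was called higher in F3 than in AL rats, where 5.77% of all genes were called lower and 6.28% higher. Of the 129 genes lower in F2 rats, 91 (70.5%) were called higher and 3 were called lower in F3 than in AL rats. These 42 and 91 genes are 5.58% of the genes called lower and 11.1% of those called higher in F3 rats. The median LFC of F3 minus AL was -0.59 for the 57 genes and 0.48 for the 129 genes, against -0.01 for all genes. Both differences were tested with the same estimate of spread for each gene, made from all 12 samples. A gene called in one difference is therefore more readily called in the other, and the shares of all genes are no matched background.

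Most of the named genes had opposite signs in both differences. The mean of Adamts9 was 3050 normalized counts for AL, 8783 for F1, 3547 for F2 and 10986 for F3 samples, and its LFC of F3 minus AL was 1.85 (adjusted p = 0.000406). Acer2 had 45225, 54546 and 37611 normalized counts in AL samples and 80959, 68643 and 72300 in F3 samples, with an LFC of 0.69 (adjusted p = 0.00251), opposite to that between F2 and F1 rats. Bcl6b had 14633, 14100 and 11954 in AL samples and 6716, 7720 and 8325 in F3 samples, with an LFC of -0.84 (adjusted p = 0.000526). Among the 25 named called genes the signs were opposite in 23, 16 of them with a call in F3 against AL rats. The SLC carriers among the 25 belong to the list that the study chose for differing from AL rats, so for them a difference from AL rats was favoured beforehand. The signs were the same for Slc16a1, which was higher in F3 than in AL rats by an LFC of 0.79 (adjusted p = 0.0022), and for Adtrp, with an LFC of 0.16 (adjusted p = 0.112). Cbx6, a chromobox gene outside the rule that was named after its values were seen, was lower in F2 than in F1 rats (LFC -0.38 ± 0.07, adjusted p = 0.0295) with no difference called between F3 and AL rats (LFC -0.04, adjusted p = 0.762).

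**Figure D5:**
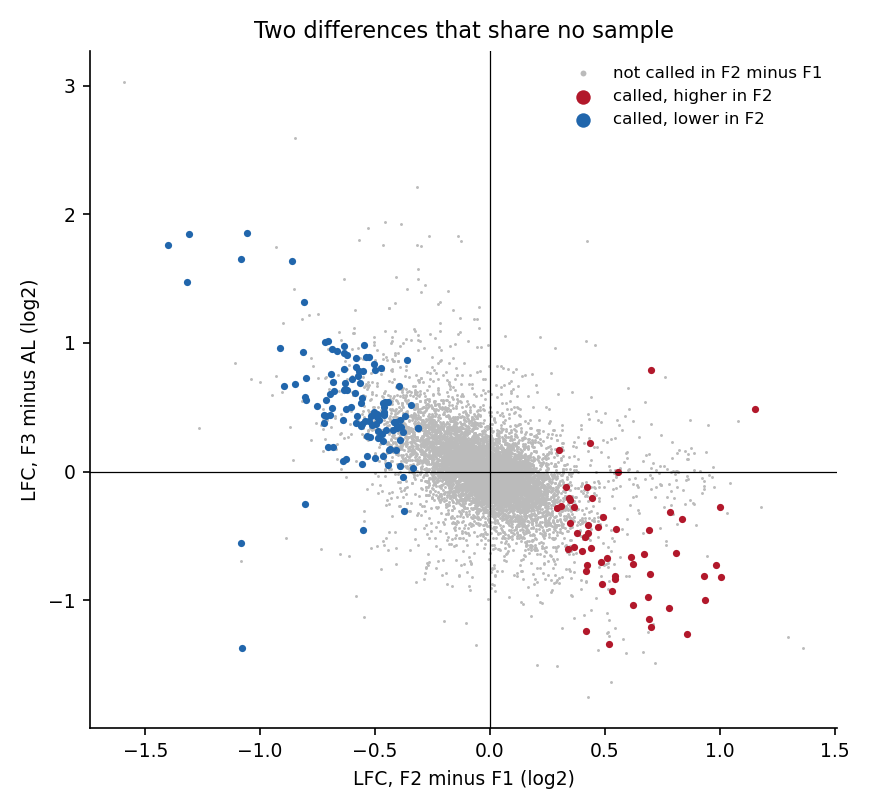
Each point is 1 of the 9438 genes with at least 100 normalized counts, with the LFC of F2 minus F1 on the x axis and the LFC of F3 minus AL, from the other 6 samples, on the y axis. Genes called higher in F2 rats (red) lie mostly below 0 on the y axis and those called lower (blue) mostly above, and r over all points is -0.520.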

How the data were processed

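RNA of sorted CECs was sequenced in 12 samples with 4 technical replicates each. Per the labels and the paper's methods, the authors made reads with bcl2fastq 2.18.0.12, trimmed and filtered them, aligned them with STAR to Rnor_6.0 (Ensembl annotation), discarded multiply matching reads and counted the rest on exons with HTSeq 0.5.3. The deposited values are raw counts without normalization. Here technical replicates were summed, and the 13050 genes with 1 or more reads in every sample were fitted with edgeR 4.0.16 (R 4.3.3): TMM scaling, 4 group means over 12 samples, robust quasi-likelihood test, Benjamini-Hochberg adjustment over these genes and a threshold of 0.05. The samples of a group are independent experiments, per the paper's methods, and p-values measure the spread between them. Normalized counts are scaled to a common effective library size, the mean of the 12. LFCs are given with the SE of the same model. Symbols came from the supplementary tables. The F1 and F2 samples, the gene lists and the rule for named genes (among called genes with a symbol that is not a clone name, at least 100 normalized counts and no overlap, the 15 largest in each direction, with called list members and genes the study names) were chosen with earlier results of these data known. DESeq2 1.42.0, other scalings, filters, left-out samples and a block of the sample letter were alternatives. Results for some single genes are left out.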

Additional observations from a re-analysis of the deposited data

How the results depend on the processing

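Every result here rests on 3 samples a group. The count of genes that differed between F2 and F1 rats, 186, was within 1.5 times of that under DESeq2's size factors, total counts, upper-quartile scaling, no filter, filterByExpr, a filter of at least 10 reads in each sample and without technical replicate d of F1 sample k (164 to 238). It was 616 with DESeq2, 56 with only the 6 F1 and F2 samples, 3 at an adjusted p-value of at most 0.01, and 49 with the pericyte markers as a covariate, which was added after seeing the data, as was a fit without robust estimation (175). With 1 sample left out it ranged from 0 to 194. The cause was not tested. Total counts gave 37.8% and upper-quartile scaling 36.9% of calls as higher, against 30.6%. With only the 6 samples 51.8% were higher. With the sample letter as a replicate block 108 genes were called, 96 of them among the 186. The letters were not taken as pairs in the main model, and the sources used here do not say whether a letter marks the same experiment in each group. Deviations of same-lettered F1 and F2 samples from their group means correlated with 0.20, 0.04 and -0.11. F1 samples i and j correlated best with their own letter, and F1 sample k with F2 sample j (0.18). These values cannot settle whether the samples are paired. Among the named genes the sign turned only for uncalled genes when a sample was left out, for Slc2a1 (-0.06 to 0.01), Abcb1a (-0.01 to 0.14) and Slc6a6 (-0.27 to 0.04). The called genes do not overlap between the groups, so that leaving out a sample could hardly turn their sign. The correlation with F3 minus AL was -0.287 and became -0.520 among genes with at least 100 normalized counts. It ranged from -0.329 to -0.154 with 1 sample left out and was -0.318 with the pericyte covariate, -0.381 with filterByExpr, -0.454 with at least 10 reads in each sample and -0.058 with no filter on low counts.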
